A study of Mus musculus with 8 samples.

Results

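T lymphocyte genes and the genes of cytotoxic intraepithelial lymphocytes were examined in the ileum of mice that lack Slc51a. The set holds 48 genes, chosen by name with earlier results of these data known. It covers the CD3 chains of the T cell receptor, the signalling proteins behind it, surface receptors of T cells and the coreceptors CD4 and CD8. It also covers granzymes and other cytotoxic products, receptors shared with natural killer (NK) cells, and transcription factors of T cell fate. Of the 48 genes, 46 were measured under a single gene symbol among 17097 genes tested, and Lck and Tcf7 were not analysed here. Total RNA came from ileal tissue of 8 male mice on a C57BL/6 background, about 2 months old and fasted for 4 h. The groups were 4 wild-type mice and 4 Slc51a knockout mice, whose basolateral bile acid transporter lacks its alpha subunit. Each sample was hybridised to 1 Affymetrix 3' expression array. The labels number the samples as biological replicates, and they name no littermates, cage or array batch. They do not say which part of the gene was deleted or in which cells. Ileal tissue mixes many cell types, so lower signal from fewer cells of a type and lower signal from less RNA per cell cannot be told apart.

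Intraepithelial lymphocytes are T cells that sit between the enterocytes of the gut lining. Many of them carry CD8 as a homodimer of its alpha chain, and they hold granzymes without prior infection. Their integrin CD103, the product of Itgae, binds E-cadherin on the enterocyte, and interleukin 15 from neighbouring cells sustains them. CD4 T cells lie mostly in the lamina propria below and in lymphoid follicles.

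All values are log2 signals normalised with RMA, a method that corrects background and equalises arrays, so that a difference of 1 is a doubling. A difference is the mean of 4 knockout mice less the mean of 4 wild-type mice, given with its standard error (SE). Each adjusted p was computed in limma, 2-sided, and adjusted by Benjamini-Hochberg over all genes tested. A gene is said to have fallen or risen where its adjusted p was under 0.05. The median signal over all probe sets, referred to as the array-wide median, was 4.58. Nonspecific control probe sets with up to 20 G or C bases read between 2.63 and 3.85, and a signal in that range is not distinguishable from nonspecific binding. Slc51a itself lay between 11.29 and 11.41 in the wild-type samples and between 4.50 and 4.68 in the knockout samples, as labelled. Hybridization controls averaged 8.11 to 8.78 on the wild-type arrays and 8.13 to 8.53 on the knockout arrays, being lowest on wild type 2, knockout 3 and knockout 4 (exact permutation p = 0.229, 2-sided). The 3' minus 5' signal of Gapdh, a measure of RNA integrity, was 0.178 to 0.338 in wild type and 0.0593 to 0.206 in the knockout (exact permutation p = 0.0571, 0.171 adjusted over 3 quality measures), and that of actin ran from 0.375 to 0.473 over all arrays (exact p = 0.314). The part of these measures in the results was not tested. The defining T cell transcripts were present: all 4 wild-type samples lay between 6.34 and 6.76 for Cd3d, Cd3e and Cd3g.

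Most of the T cell and cytotoxic genes were lower in the knockout. Of the 46 measured members, 29 fell, 1 rose and 16 did not pass. Of all genes tested 30% passed, 12.9% being lower and 17.1% higher in the knockout. The members were chosen with earlier results of these data known, so these shares describe the set and do not test it. The median difference was -0.24 over the members and 0.01 over all genes. In 27 members all 4 knockout samples lay below all 4 wild-type samples, as in 12.8% of all genes, and in 1 they all lay above, as in 18% of all genes. Among the 23 members with a mean signal at or above the array-wide median 17 fell, where 17.9% of such genes fell, with a median difference of -0.64. Among the 23 dimmer members 12 fell, where 4.19% of such genes fell. A fall of at least 1 on the log2 scale was found in 6 members, Gzma, Gzmb, Cd3g, Nkg7, Ptprc and Klrd1, and in 0.854% of all genes.

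**Figure D1:**
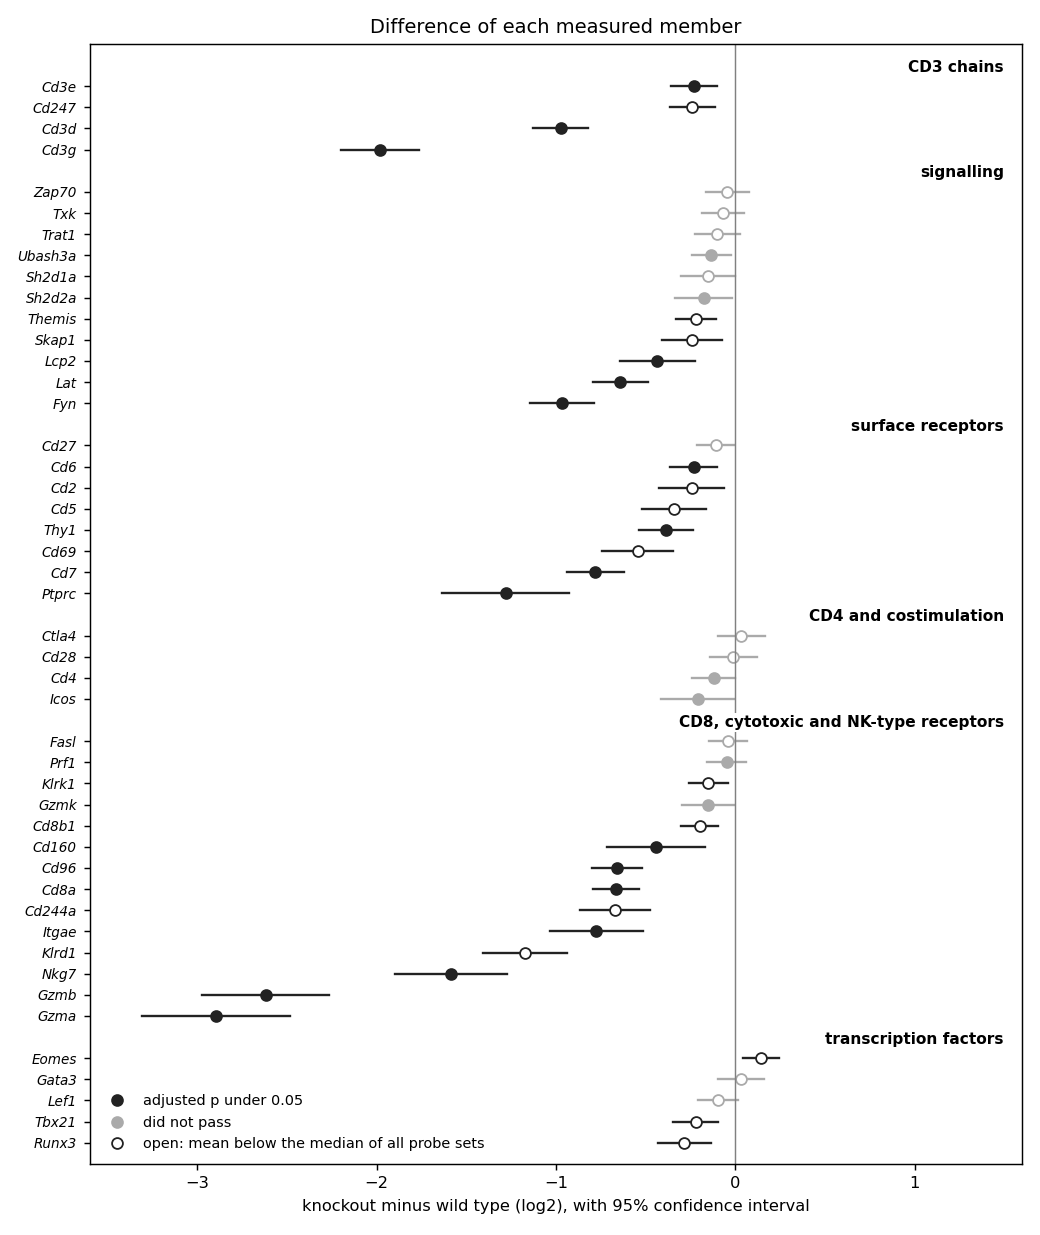
Difference of each of the 46 measured members between knockout and wild type on the log2 scale, with its 95% confidence interval from limma, grouped by role. Dark symbols passed the adjusted p of 0.05 and grey ones did not, and open symbols are members whose mean lay below the array-wide median. The granzymes Gzma and Gzmb and the CD3 chain Cd3g lie farthest to the left, and the 4 genes of CD4 and costimulation all cross or lie close to 0.

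All 4 chains that transmit the T cell receptor signal fell, by unequal amounts, where 12.9% of all genes tested fell. Cd3g encodes the gamma chain of CD3. It read 6.58, 6.34, 6.38 and 6.71 across the wild-type mice, whereas the knockout mice read 4.31, 4.56, 4.50 and 4.72. The groups lay well apart, and the knockout samples sat near the array-wide median, which limits how far a fall can be read. The difference was -1.98 (SE 0.10, adjusted p = 5.26e-07), a knockout signal of 25.4% of wild type. Cd3d, the delta chain, read 6.76, 6.64, 6.63 and 6.71 across the wild-type mice, whereas the knockout mice read 5.69, 5.89, 5.55 and 5.71. It changed by -0.97 (SE 0.07, adjusted p = 5.09e-06). Cd3e, the epsilon chain that pairs with both of the others, read 6.70, 6.75, 6.53 and 6.67 across the wild-type mice and 6.49, 6.38, 6.50 and 6.36 across the knockout mice. Its groups were separated only by a narrow gap, and it changed by -0.23 (SE 0.06, adjusted p = 0.0107). Cd247, the zeta chain, read 4.62, 4.48, 4.49 and 4.44 across the wild-type mice and 4.32, 4.24, 4.18 and 4.34 across the knockout mice, near or below the array-wide median in each sample. It changed by -0.24 (SE 0.06, adjusted p = 0.00778), and its other 3 probe sets, all dimmer, did not pass. The call of Cd3e was lost when the 3 arrays lowest in hybridization controls were left out (-0.20, adjusted p = 0.0974), as was that of Cd247 (adjusted p = 0.0584).

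In the order of genes in RefSeq, Cd3g, Cd3d and Cd3e follow each other with 0 protein-coding genes between them, and each is read by a single probe set. The log2 ratio of Cd3g to Cd3e was formed within each array, which cancels any shift common to both genes. It fell by 1.75 from wild type to knockout and that of Cd3d to Cd3e by 0.74. Both ratios separated the genotypes fully, each with an exact permutation p = 0.0286, the smallest that 4 against 4 samples can give, and 0.0476 adjusted over the 10 gene pairs compared. Cd3g thus fell further than Cd3e on these probe sets.

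**Figure D2:**
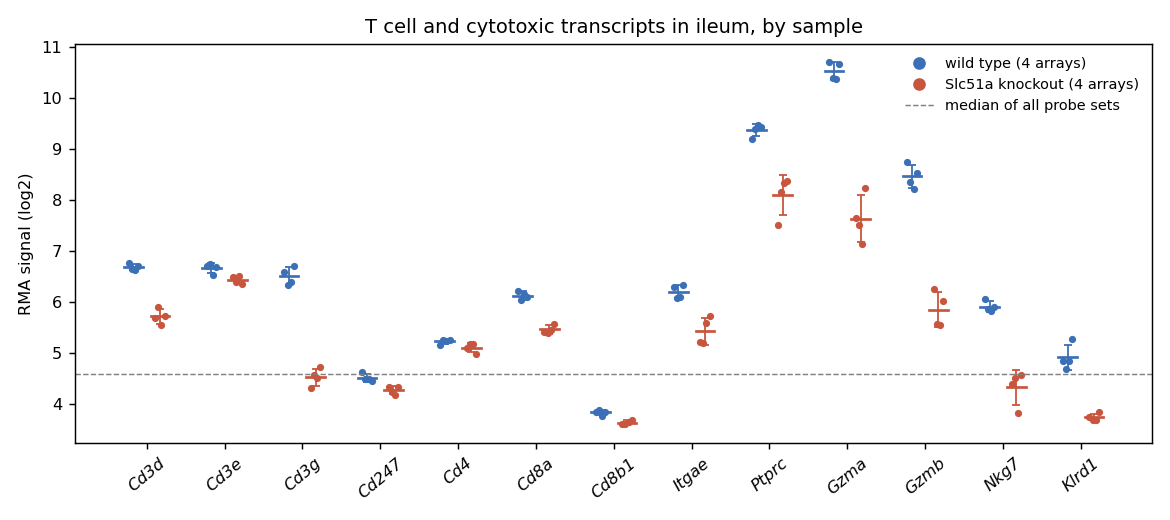
RMA signal on the log2 scale of 13 members in each of the 8 samples, with points for single arrays, horizontal bars for the mean of 4 and whiskers for the SD; the dashed line is the array-wide median, 4.58. Signals of different probe sets are not comparable in level. The genotypes do not overlap for 12 of the genes shown; they overlap for Cd4.

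Of the 11 measured genes whose proteins carry the receptor signal inside the cell, 5 fell, 0 rose and 6 did not pass in limma. Among all genes tested 12.9% fell. At an unadjusted p under 0.05, 8 of the 11 were lower and 0 higher. The Src family kinase Fyn changed by -0.97 (SE 0.08, adjusted p = 1.24e-05), and its wild-type samples at 5.90 to 6.15 lay above the knockout samples at 4.98 to 5.32. The adaptor Lat, on which the signalling complex assembles, changed by -0.64 (SE 0.07). Lcp2, the adaptor SLP-76 that binds to it, changed by -0.43 (SE 0.09). Themis, needed for thymic selection, and the adaptor Skap1 fell by 0.22 and 0.24, with signals around or below the array-wide median. Both lost their call with their probe sets averaged (adjusted p = 0.496 and 0.225), and Skap1 did so on leaving out each of 6 of the 8 arrays. The kinase Zap70, which docks on the phosphorylated CD3 chains, averaged 3.89 in wild-type and 3.84 in knockout mice, close to the nonspecific range. Its difference of -0.04 (95% confidence interval -0.16 to 0.07) did not pass. Txk (-0.07), Trat1 (-0.10), Ubash3a (-0.13), Sh2d1a (-0.15) and Sh2d2a (-0.18) did not pass either. Fyn, Lat and Lcp2 are also used by other blood cells.

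Of the 8 surface receptors found on T cells in general, 7 fell and 1 did not pass, where 12.9% of all genes tested fell. Ptprc encodes CD45, the phosphatase on the surface of all leukocytes. It read 9.20, 9.40, 9.47 and 9.43 across the wild-type mice, whereas the knockout mice read 7.51, 8.15, 8.33 and 8.37. Knockout 1 was the lowest sample, and the groups did not overlap. The difference was -1.28 (SE 0.16, adjusted p = 0.000152), a knockout signal of 41.2% of wild type. Cd7, abundant on intraepithelial lymphocytes, changed by -0.78 (SE 0.07, adjusted p = 2.04e-05). Cd69, a marker of activated and tissue-resident cells, changed by -0.55 (SE 0.09) with a signal below the array-wide median. Thy1, which neurons and stromal cells also express, changed by -0.39 (SE 0.07). The scavenger receptors Cd5 and Cd6, neighbours in the gene order, changed by -0.34 and -0.23. The adhesion receptor Cd2 changed by -0.24 (adjusted p = 0.0427), a call that was lost in 8 of the alternatives tried. Cd27, at 3.30 and 3.19, lay in the nonspecific range and did not pass.

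Ptprc is shared with B cells, and most of the B cell markers measured were lower too. Of 5 measured B cell genes 4 fell and 1 did not pass, where 12.9% of all genes tested fell. The mean signal of the list ran from 5.86 to 6.48 on the wild-type arrays and from 5.002 to 5.71 on the knockout arrays. Ms4a1, the gene of CD20, read 6.36, 7.40, 7.72 and 7.46 across the wild-type mice, whereas the knockout mice read 4.45, 5.55, 5.99 and 6.20. Cd79b, a chain of the B cell receptor, read 6.97, 7.60, 7.63 and 7.42 across the wild-type mice and 5.60, 5.99, 6.35 and 6.45 across the knockout mice. For Ptprc, Ms4a1, Cd79b and Cd22 replicate 1 was the lowest sample of each genotype and knockout 4 the highest of the knockout samples. Cd79a, which did not pass, and Blk did not share this order, their lowest knockout sample being knockout 3 (4.97 and 3.85). Cd22 and Blk were the other B cell genes that fell, by 0.73 and 0.33. The part of B cells in the fall of Ptprc was not tested.

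The members were split into the CD8, cytotoxic and NK-type genes and the other T cell genes. Among all genes tested 12.9% fell and 17.1% rose. Of 14 members of the CD8, cytotoxic and NK-type group, 11 fell, 0 rose and 3 did not pass (limma; 12 lower and 0 higher at an unadjusted p under 0.05), with a median difference of -0.66. Of the 27 measured CD3, signalling, surface and CD4 members, 16 fell, 0 rose and 11 did not pass (22 lower and 0 higher unadjusted), with a median of -0.23. Counting only members at or above the array-wide median, 7 of 9 fell in the first group with a median of -0.67, and 10 of 14 in the second with a median of -0.41. Among all genes at that level 17.9% fell. The medians were not tested against each other.

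Gzma, which encodes the tryptase granzyme A, read 10.69, 10.40, 10.36 and 10.66 across the wild-type mice, whereas the knockout mice read 7.64, 7.51, 7.14 and 8.23. Knockout 4 was the least reduced and knockout 3 the most, and no knockout sample came within reach of wild type. The difference was -2.90 (SE 0.19, adjusted p = 2.57e-06), a knockout signal of 13.4% of wild type, and it ranked 9 among the falls of all 17097 genes. Gzmb, which encodes granzyme B, a protease that triggers death of the target cell, read 8.74, 8.36, 8.22 and 8.53 across the wild-type mice and 6.25, 5.57, 5.54 and 6.02 across the knockout mice. It changed by -2.62 (SE 0.16, adjusted p = 1.78e-06), to 16.3% of wild type and rank 15. Gzmk, next to Gzma with 0 protein-coding genes between them, was at 4.85 and 4.70 and did not pass (-0.15, 95% confidence interval -0.30 to -0.01, adjusted p = 0.111). Nkg7, a membrane protein of cytotoxic granules, read 6.05, 5.86, 5.81 and 5.89 across the wild-type mice, whereas the knockout mice read 4.40, 4.51, 3.81 and 4.57. Every knockout sample lay below the array-wide median, and knockout 3 was in the nonspecific range. Nkg7 changed by -1.58 (SE 0.14, adjusted p = 1.8e-05). Prf1, the pore-forming perforin, was at 4.72 and 4.68 and did not pass (-0.05, 95% confidence interval -0.16 to 0.06), nor did the death ligand Fasl (-0.04), although a dimmer Fasl probe set in the nonspecific range did.

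Prf1 and Gzmk had signals just above the array-wide median and Fasl one below it. The ratio of Gzma to Cd3e within an array fell by 2.66 and that of Gzmb to Cd3e by 2.38, each with an exact permutation p = 0.0286 (0.0476 adjusted over the 10 pairs). The ratio of Prf1 to Cd3e rose by 0.18 without passing (exact p = 0.0571, adjusted p = 0.0714). With all probe sets of each gene averaged it rose by 0.27 and passed (exact permutation test, adjusted p = 0.0408). Cd3e fell least of the CD3 chains (-0.23, against -0.97 for Cd3d and -1.98 for Cd3g). Ratios of these genes to Cd3d or Cd3g were not formed, so the sizes given hold for Cd3e alone.

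**Figure D3:**
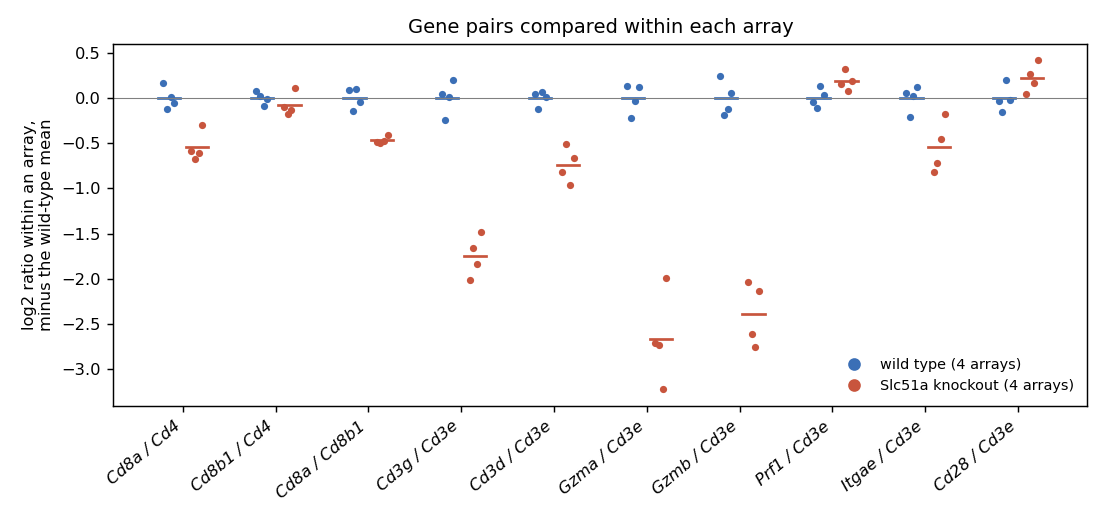
Log2 ratio of a pair of members within each array, shown as its distance from the wild-type mean, for the 10 pairs compared; points are single arrays and bars the mean of 4. The ratios of Cd8a to Cd4 and of Cd3g, Cd3d, Gzma and Gzmb to Cd3e lie wholly below wild type in the knockout; both ratios with Cd8b1 rest on a signal at the nonspecific range.

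Promoters are shown for members that fell most and have an entry in the RefSeq promoter table. A factor shared by these genes was not tested. Each sequence is the 250 bases before the annotated start, 5′ to 3′ on the strand of the gene, in GRCm38.p6. Capitals mark matches on either strand to a RUNX core (TGTGGT), an ETS core (AGGAAG), a T-box (AGGTGTGA) or a TATA box (TATAAA), and no match overlaps another. RUNX, ETS and T-box proteins are families of transcription factors with members active in cytotoxic T cells.
Gzma: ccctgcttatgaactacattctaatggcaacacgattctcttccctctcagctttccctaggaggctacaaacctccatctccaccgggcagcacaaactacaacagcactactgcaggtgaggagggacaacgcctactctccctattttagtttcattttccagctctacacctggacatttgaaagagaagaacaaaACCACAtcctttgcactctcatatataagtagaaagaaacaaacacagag
Gzmb: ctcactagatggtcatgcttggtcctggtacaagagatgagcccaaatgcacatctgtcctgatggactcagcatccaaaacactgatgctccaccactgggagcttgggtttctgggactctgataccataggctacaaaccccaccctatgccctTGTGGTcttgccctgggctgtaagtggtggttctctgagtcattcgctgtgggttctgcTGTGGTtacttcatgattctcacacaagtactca
Cd3g: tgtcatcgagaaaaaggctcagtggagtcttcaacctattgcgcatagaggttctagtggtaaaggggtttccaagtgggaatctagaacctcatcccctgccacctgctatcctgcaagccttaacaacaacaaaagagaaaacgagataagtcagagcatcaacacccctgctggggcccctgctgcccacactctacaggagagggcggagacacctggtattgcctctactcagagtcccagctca
Nkg7: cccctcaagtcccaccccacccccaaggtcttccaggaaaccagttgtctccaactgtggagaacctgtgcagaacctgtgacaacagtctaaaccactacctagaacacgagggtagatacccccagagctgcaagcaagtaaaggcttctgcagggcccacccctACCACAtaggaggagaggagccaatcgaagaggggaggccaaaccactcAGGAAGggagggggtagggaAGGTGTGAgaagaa
The Gzma sequence, chr13:113100982-113101231 on the minus strand, holds a RUNX core that starts 50 bases before the gene. The Gzmb sequence, chr14:56262335-56262584 on the minus strand, holds RUNX cores that start 93 and 34 bases before it. The Nkg7 sequence, chr7:43436888-43437137 on the plus strand, holds a RUNX core at 83, an ETS core at 34 and a T-box at 14 bases before the start. No match to these letters is in the Cd3g window, chr9:44980432-44980681 on the minus strand. A RUNX core was present in 12 of the 42 promoters of the 32 members with an entry (28.6%) and in 14.0% of all 32851 promoters. For the ETS core the shares were 45.2% and 29.5%, and for the TATA box 9.52% and 12.4%. For the T-box they were 4.76%, which is only 2 of the 42 promoters, and 1.12%. These matches describe letters and do not show binding. Klrd1 has no entry there.

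Cd8a, the CD8 alpha chain, read 6.22, 6.03, 6.15 and 6.09 across the wild-type mice, whereas the knockout mice read 5.40, 5.40, 5.46 and 5.57. All 4 knockout samples were lower, and the difference was -0.67 (SE 0.06, adjusted p = 1.63e-05). Its other 2 probe sets changed by -0.62 and -0.95 and passed as well. Cd8b1, next to Cd8a in the gene order, encodes the beta chain that replaces an alpha chain in conventional CD8 T cells. It read 3.83, 3.88, 3.75 and 3.85 across the wild-type mice and 3.59, 3.60, 3.64 and 3.69 across the knockout mice. It fell by 0.20 (SE 0.05, adjusted p = 0.00764), with every sample within or just above the nonspecific range, which limits how far a fall can be read. Cd4 read 5.16, 5.25, 5.23 and 5.25 across the wild-type mice, whereas the knockout mice read 5.09, 5.18, 5.16 and 4.98. The groups overlapped, and the difference of -0.12 (95% confidence interval -0.24 to -0.00) did not pass (adjusted p = 0.127). The second Cd4 probe set differed by -0.01.

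The ratio of Cd8a to Cd4 within an array fell by 0.54, with an exact permutation p = 0.0286 (0.0476 adjusted). The ratios that involve Cd8b1 are limited by its signal, which was not above the nonspecific range by more than a narrow margin in any sample and so had little room to fall. For that reason the ratio of Cd8a to Cd8b1, which also passed, is not read as a difference between the chains, nor is that of Cd8b1 to Cd4 (exact p = 0.314) as their likeness. None of the 4 genes of CD4 and costimulation passed in limma, 2 being lower at an unadjusted p under 0.05. They were Cd4, Cd28 (-0.01), the inducible costimulator Icos (-0.21) and the inhibitory receptor Ctla4 (0.03). Among all genes tested 12.9% fell, and a list of 4 genes is too short to differ clearly from that share. A dimmer probe set of Icos did pass. Cd28, Ctla4 and Icos are neighbours in the gene order. Macrophages and dendritic cells can also express Cd4.

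The members that encode receptors shared by cytotoxic T cells and NK cells fell. Further receptors of this kind outside the set, Klrc1 (0.02), Klrg1 (0.16) and Klrb1c (-0.13), did not pass in limma. They are named after their values were seen. Klrd1, the CD94 subunit of NKG2 receptors, read 4.83, 4.69, 4.84 and 5.27 across the wild-type mice, whereas the knockout mice read 3.74, 3.68, 3.69 and 3.83. The knockout samples lay within the nonspecific range, and the difference was -1.17 (SE 0.11, adjusted p = 1.88e-05). Its neighbour Klrk1, the gene of NKG2D, fell by 0.15 (adjusted p = 0.0414) at signals of 4.00 and 3.85, a call lost in 8 alternatives. Cd244a, the gene of the receptor 2B4, changed by -0.67 (SE 0.09). Cd96, a receptor for nectin-family ligands, changed by -0.66 (SE 0.06). Cd160, a receptor abundant on intraepithelial lymphocytes, changed by -0.44 (SE 0.12, adjusted p = 0.0191), with a second probe set at -0.48 and another 2, in the nonspecific range, at 0.01 and -0.10 that did not pass. The Cd160 call was lost without knockout replicate 4 (adjusted p = 0.0520). Of 5 markers of NK cells themselves, 0 fell and 1 rose in limma (1 lower and 1 higher at an unadjusted p under 0.05). Among all genes tested 12.9% fell and 17.1% rose, and 4 of these 5 markers averaged below the array-wide median. So few and dim markers do not show whether NK cell transcripts differed. Ncr1, the defining NK receptor, was at 3.85 and 3.80, within the nonspecific range in wild type and knockout. The marker that rose, Klra8, was at 3.22 and 3.42, also in the nonspecific range.

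Itgae, the integrin chain that holds the lymphocyte to the epithelium, read 6.29, 6.07, 6.10 and 6.33 across the wild-type mice, whereas the knockout mice read 5.20, 5.19, 5.58 and 5.72. The genotypes did not overlap, and knockout 1 and knockout 2 were the lowest samples. Itgae changed by -0.77 (SE 0.12, adjusted p = 0.000514). Its ratio to Cd3e differed by -0.54 (exact permutation p = 0.0571, adjusted p = 0.0714), and by -0.84 when the 3 arrays lowest in hybridization controls were left out. Cd3e was the CD3 chain that fell least, and Itgae fell less than Cd3d (-0.97) and Cd3g (-1.98). The lower ratio of Itgae to Cd3e thus did not pass, and its direction does not extend to every CD3 chain. Its ligand on the enterocyte, Cdh1, fell by 0.16 (SE 0.04, adjusted p = 0.0146).

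The transcription factors were all dim, each with a mean over the 8 arrays below the array-wide median, and 2 of 5 fell while 1 rose. Of all genes below that median 4.19% fell and 2.37% rose. Runx3, which drives the CD8 programme, changed by -0.28 (SE 0.07, adjusted p = 0.00722) on its brighter probe set and by 0.11 on the other, which did not pass; averaged, they did not pass (adjusted p = 0.174). Tbx21, the gene of T-bet, fell by 0.22 (SE 0.06, adjusted p = 0.0119) at 3.70 and 3.48, in the nonspecific range, a call lost without the same 3 arrays (adjusted p = 0.0986). Eomes, a relative of T-bet, read 4.20, 4.17, 4.23 and 4.24 across the wild-type mice, whereas the knockout mice read 4.30, 4.41, 4.38 and 4.32. The groups did not overlap, and it rose by 0.14 (SE 0.05, adjusted p = 0.0334). The Eomes call was lost in 10 alternatives, among them the average of its probe sets (adjusted p = 0.574), on leaving out any wild-type sample, and without knockout replicate 2 or 3. Gata3 (0.03) and Lef1 (-0.10) did not pass, both in the nonspecific range.

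**Figure D4:**
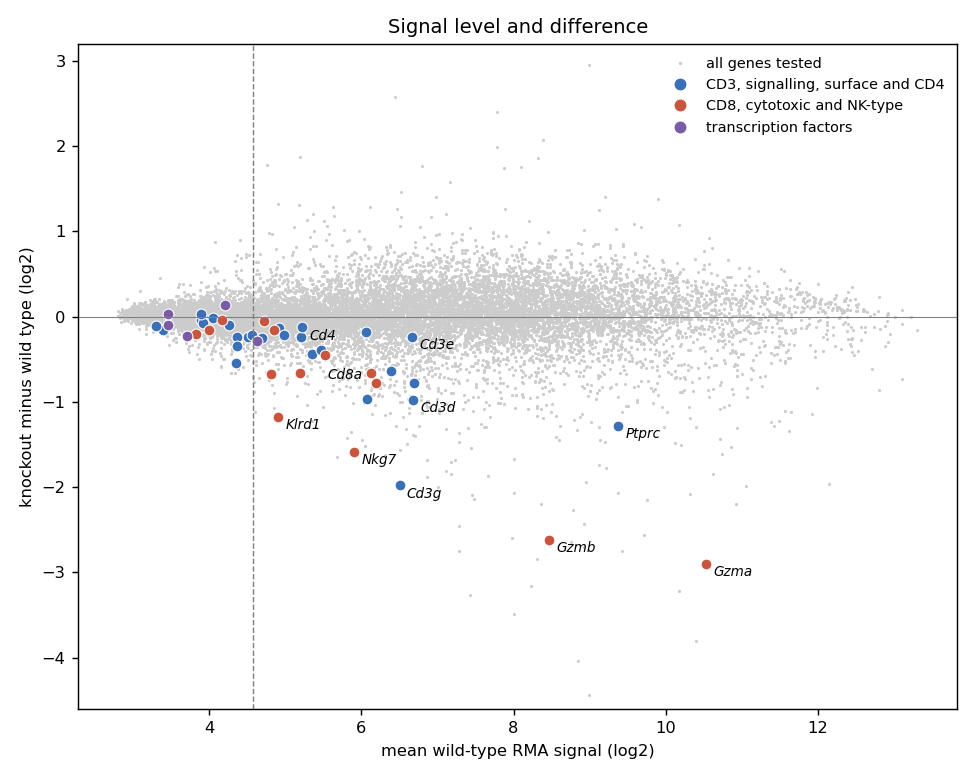
Mean wild-type RMA signal (x axis, log2) and knockout minus wild type (y axis, log2) of all 17097 genes tested, with the measured members coloured by role; the dashed line is the array-wide median, 4.58, and 1 gene below the y axis range, Slc51a, is not drawn. Members left of the line lie close to 0, Cd69 being the lowest there, while Gzma, Gzmb, Cd3g and Nkg7 lie far below 0.

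The samples of one genotype did not all stand alike. Over the 29 members that fell, knockout 4 was the highest knockout sample in 19, with a mean signal of 5.03 against 4.89 to 4.90 in the other knockout samples. The wild-type means lay between 5.66 and 5.74. The spread was larger in the knockout for 18 of the 29 members, and for 58.3% of all genes.

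Other genes of the T cell and its cytotoxic programme were taken from lists chosen by name, also with earlier results of these data known. Of all genes tested 12.9% fell. Of 24 measured further genes of T cell signalling and lymphocyte structure, 13 fell, 0 rose and 11 did not pass (limma; 13 lower and 1 higher at an unadjusted p under 0.05), with a median of -0.27. Those with the smallest adjusted p were Gimap4, a GTPase of lymphocyte survival (-1.67), the surface glycoprotein Cd52 (-1.04), the GTPase Rac2 (-0.65) and its regulator Arhgdib (-0.77). Bcl11b (0.17) was the gene higher at an unadjusted p, and is named for that reason. The part of B cells in these falls was not tested. Of 15 other cytotoxic genes 7 fell and 1 rose, with a median of -0.15. The chemokine Ccl5 changed by -2.56 (SE 0.15), the granule proteoglycan Srgn by -0.82, the cathepsin Ctsw by -0.82 and the cystatin Cst7 by -0.55. Gzmc rose by 0.18 in the nonspecific range, and is named because it was the only riser. Of 9 regulatory and helper genes 1 fell and 0 rose (limma; the same counts unadjusted), the fall being in S1pr1 (-0.37), the receptor that guides lymphocytes out of tissue. Foxp3, Il17a, Ifng, Il4 and Il10 averaged below the array-wide median in wild-type and in knockout mice, and are named after their values were seen.

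Most of the genes listed for the niche of these lymphocytes were lower too, where 12.9% of all genes tested fell. The list is not confined to genes of the epithelium, since it holds Ccr9 of the lymphocytes themselves. Of 12 measured genes 8 fell, 0 rose and 4 did not pass (limma; 8 lower and 0 higher unadjusted), with a median of -0.25. Il15, the cytokine that maintains intraepithelial lymphocytes, averaged 6.79 ± 0.23 (SD, n = 4) in wild-type mice and 5.85 ± 0.22 (SD, n = 4) in knockout mice, a difference of -0.94 (SE 0.13, adjusted p = 0.000229). Ccr9, the gut homing receptor carried by the lymphocytes, changed by -0.67 (SE 0.10). H2-T3, a class I molecule of the enterocyte that binds the CD8 alpha homodimer, changed by -0.33 (SE 0.05), and Btnl2, a butyrophilin-like gene, by -0.47 (SE 0.08). The probe sets of H2-T3 and Ccr9 carry the suffix for possible binding to other transcripts.

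Markers of other cells of the ileal wall were read on the same arrays, where 12.9% of all genes tested fell and 17.1% rose. Of 8 epithelial markers 2 fell, Vil1 (-0.24) and Cdh1, and 2 rose, Krt18 (0.26) and Cdx1 (0.37), the mean of the list being 11.27 to 11.32 in wild type and 11.24 to 11.32 in the knockout. All 6 smooth muscle markers fell, with list means of 9.71 to 10.13 and 8.93 to 9.15. They were Acta2 (-0.50), Mylk (-0.63), Tpm2 (-0.91), Myh11 (-0.94), Des (-0.95) and Cnn1 (-1.14). Of 8 macrophage and dendritic cell markers 2 fell, Itgax (-0.48) and Lyz2 (-0.16), and 2 rose, Cd14 (0.44) and Mrc1 (0.40), with list means of 6.61 to 6.85 and 6.58 to 6.75. The Lyz2 probe set carries the suffix for possible binding to other transcripts. Its wild-type mean of 13.31 was the highest of all genes tested and raises the list means, so it may not read these cells. Of 6 endothelial markers 3 fell, Kdr (-0.32), Cdh5 (-0.28) and Vwf (-0.17), with means of 4.71 to 4.84 and 4.56 to 4.68. Of 5 mast cell markers Kit fell (-0.52), with means of 4.35 to 4.90 and 4.20 to 4.51. Of 3 plasma cell markers 0 fell (limma; 2 lower unadjusted), with means of 7.82 to 8.11 and 7.80 to 7.93. Of 6 fibroblast markers 0 fell (limma; 0 unadjusted) and Pdgfra rose (0.20), with means of 6.40 to 6.76 and 6.54 to 6.76. The part of these cells in the falls of the T cell genes was not tested.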

How the data were processed

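Ileal RNA of 4 wild-type and 4 Slc51a knockout mice was measured on 1 Affymetrix array each, from 250 ng of total RNA per the labels' protocols. The values are the authors' deposited log2 signals, made with RMA per the submitters' processing notes; no version is given in the sources used here. The method compresses low signals. The number of arrays limits the precision. Of 45141 probe sets, 104 were controls, 28898 carried exactly 1 symbol by GEO's platform annotation, which left out 551 with several symbols and 15588 unlisted ones. Entrez identifiers matched 28689 to RefSeq of GRCm38.p6, which updated the symbols. The brightest probe set stood for a gene, giving 17097 genes with no filter. Limma 3.58.1 in R 4.3.3 (lmFit, eBayes, 2-sided) compared genotypes, with Benjamini-Hochberg adjustment and a threshold of 0.05, and was tested on simulated data. Ratios of 10 member pairs were compared by 2-sided exact permutation tests.

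Replicates are biological per the labels, which do not say how animals were chosen. The members and lists were chosen with earlier results of these data known. Values in every sample are given for members past the threshold that differed by at least 1, the CD3 chains, Cd4, Cd8a, Cd8b1, Itgae and any member that rose. At most 4 genes of each further list, those with the smallest adjusted p past the threshold, are named, apart from genes named for a stated reason. Marker lists are given whole. Of 82 further T cell and niche genes 60 were measured, and of 57 markers 52; the constant regions of the T cell receptor were not analysed here. Alternatives were a filter on dim genes, 3 renormalisations, the mean of probe sets, other variance settings, weighted arrays, a block for the replicate number, other thresholds, leaving out arrays and, chosen after the data were seen, a fit on all probe sets. Figures were drawn with matplotlib 3.10.9.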

Additional observations from a re-analysis of the deposited data

Results flagged for a closer look

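Among the members, each tested in both genotypes (92 groups of 4 samples), 3 samples stood far from the other 3 of their group, where chance flags about 1 in 20 groups. Fyn in wild type 2 was at 5.90, the next sample being at 6.12. Themis in knockout 4 was at 4.28 with the next at 4.36, the other 3 knockout samples being nearly equal. Icos in knockout 4 was at 4.49 with the next at 4.84; knockout 4 was the highest knockout sample in most members that fell. No other sample of a member met this limit.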

How the results depend on the processing

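The count of members that fell, 29, ran from 26 to 29 on leaving out 1 array and was 23 without the 3 arrays lowest in hybridization controls. It was 18 without dim genes, where fewer members were tested, and the cytotoxic and CD8 count, 11, was then 7. The count of members that rose, 1 (Eomes), was 0 at a threshold of 0.01, with eBayes trend and robust, with the mean of probe sets, without dim genes, without the 3 arrays and with the replicate block. It ran from 0 to 1 on leaving out 1 array. Of all genes, 2210 fell, and 1446 did at 0.01 and 1414 without the 3 arrays. The ratio of Prf1 to Cd3e passed with the mean of probe sets (0.27), and that of Itgae to Cd3e was -0.84 without the 3 arrays. With 1 or 3 arrays left out no exact test of a ratio can reach 0.05, so the 6 ratios that passed on all arrays have no call there and were compared by value alone. No called member changed direction, and 20 of the 30 called members passed in every alternative that fitted them, thresholds aside. Exceptions were Cd160, Cd2, Cd247, Cd3e, Eomes, Klrk1, Runx3, Skap1, Tbx21 and Themis. The cause of these losses was not tested. With the replicate number as a block, 28 members fell. Same-numbered samples correlated at 0.22, -0.05, 0.11 and 0.16 in their deviations, so shared numbers are not shown to pair the samples, and wild type 2 and wild type 3 correlated best with another number. Signal near the nonspecific range limits what can be seen in Cd8b1, Tbx21, Zap70 and Klrk1.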

Other observations

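Several members are read by more than 1 probe set, and these did not always tell the same. Of 17 such members 10 passed on their brightest probe set, and 4 of these, Cd8a, Fyn, Cd160 and Cd244a, passed in the same direction on another, while 0 passed in the opposite direction. Fasl and Icos passed only on a dimmer probe set. A dimmer probe set of Fasl averaged 3.77 in wild-type mice and 3.48 in knockout mice and changed by -0.29 (limma over all probe sets, adjusted p = 0.00871), whereas the brightest differed by -0.04. That dimmer probe set lay wholly within the nonspecific range in both genotypes. One of Icos changed by -0.27 (adjusted p = 0.0257). With the mean of probe sets both passed, Icos with -0.22 (limma, adjusted p = 0.00303) and Fasl with -0.17 (adjusted p = 0.00623), the average for Fasl including the probe set in the nonspecific range.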
